A study of Mus musculus with 6 samples.

Results

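DBA-positive kidney cells of mice without *Pkd1* (ADPKD) were compared with those of wild-type mice (WT) across all genes that reached 1 FPKM in 2 or more of the 4 libraries. By this rule 13935 of the 55367 gene symbols in each library were compared. WT stands for mice labelled wild type, and ADPKD for male Pkd1 fl/fl;Cre/Esr1+ mice, written Pkd1-/- after deletion, in which tamoxifen given in early life activated Cre and removed *Pkd1*. Both groups were labelled saline and were collected at Day115, with 2 libraries in each. The sources used here do not say whether the WT mice carried the Cre transgene or received tamoxifen, or whether the libraries of a group came from separate animals, so p-values measure only the spread between these libraries, which may be technical. The cells were freed with collagenase and hyaluronidase and bound through biotinylated DBA to beads. The labels call them kidney tubular epithelial cells but also mention RNA of the whole kidney in the extraction, and the marker levels given below bear on this.

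*Pkd1* encodes polycystin-1, a large membrane protein of the primary cilium and cell junctions that forms a channel complex with polycystin-2. When tubule cells lose it, tubules widen into fluid-filled cysts lined by epithelium that divides, secretes chloride through cAMP-dependent channels and is surrounded by macrophages and matrix-producing fibroblasts. DBA, a lectin of *Dolichos biflorus*, binds N-acetylgalactosamine on the surface of collecting duct cells and is used to separate this segment, whose principal cells carry water and sodium channels and whose intercalated cells move acid and base.

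In the rest of the text, values per library are FPKM in the order WT 1, WT 2, ADPKD 1 and ADPKD 2. FPKM is the number of reads on a gene scaled to the gene's length and to the library's depth. Log2 fold changes are differences of group means, ADPKD minus WT, of log2(FPKM + 1) and are therefore too small for genes near 0 FPKM. They are given with their standard error (SE) and the Benjamini-Hochberg adjusted p of limma over all 13935 genes, and each mean rests on n = 2. Genes that changed by 1.5-fold or more with an unadjusted P under 0.05 are the ones called higher or lower. The steps between low FPKM values gave depths of 30.6 and 30.996 M reads in WT and of 33.1 and 32.0 M reads in ADPKD, where M stands for mega. Across genes, which are not independent replicates, log2(FPKM + 1) correlated with Pearson's r of 0.983 between the WT libraries and 0.956 between the ADPKD libraries. Between groups r was 0.902 for ADPKD 1 and lower, at 0.850 and 0.857, for ADPKD 2.

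*Pkd1*, on chromosome 17 from 24549834 to 24596508 of GRCm38, had 17.7, 17.2, 7.64 and 8.91 FPKM, a log2 fold change of -0.998 (SE 0.14, adjusted p = 0.0217). Both ADPKD libraries lay below both WT libraries, and reads on exons outside the deleted part are counted in the same value. *Esr1*, the estrogen receptor gene whose ligand-binding part is also in the Cre fusion, had 0.242, 0.161, 30.6 and 30.3 FPKM (log2 fold change 4.71, SE 0.13, adjusted p = 0.00533). Reads of the transgene and of the *Esr1* gene itself cannot be told apart here. By both genes, the libraries labelled ADPKD differed from those labelled WT and resembled each other.

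The ADPKD cells differed widely from WT. Of the 13935 genes, 1959 were called higher, which is 14.1%, and 1796 were called lower, which is 12.9%. Counts within the lists below are to be read beside these shares of all genes. With the adjusted p under 0.05 in place of P, 1323 genes (9.49%) were higher and 1244 (8.93%) lower. Both ADPKD libraries lay above both WT libraries for 4955 genes (35.6%) and below them for 4530 (32.5%), and all called genes were among these. Changes of at least 4-fold were called for 221 genes upward and 158 downward.

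The ADPKD libraries did not stand equally far from WT. ADPKD 2 was further from the WT mean than ADPKD 1 in 66.0% of the genes called higher and in 76.8% of those called lower. The values of ADPKD 1 and ADPKD 2 were at least 1.5-fold apart in 16.3% of tested genes, against 5.20% for the WT libraries. Of the called genes, 1536 higher and 1434 lower ones passed a 1.5-fold difference from the WT mean in each ADPKD library on its own.

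**Figure D1:**
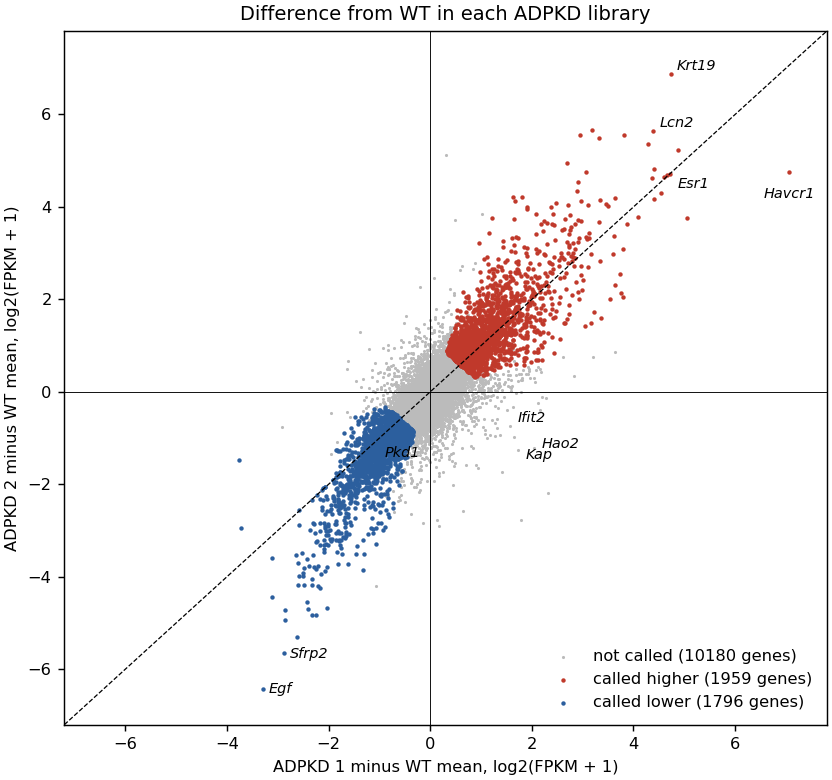
Each point is 1 of the 13935 tested genes, placed by its difference from the WT mean in ADPKD 1 (x axis) and ADPKD 2 (y axis), both in log2(FPKM + 1), with the 1959 genes called higher in red and the 1796 called lower in blue. Most called genes lie near the dashed line of equal values, the lowest ones lie below it, and *Kap*, *Hao2* and *Ifit2* are above WT in ADPKD 1 and below it in ADPKD 2.

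Among the largest gains were genes that tubule cells switch on after injury. *Havcr1*, which encodes the injury receptor KIM-1 and lies on chromosome 11 from 46735080 to 46779578, had 0, 0.0559, 136 and 26.6 FPKM. These values stand for 0, 4, 10427 and 1972 reads, so WT was at or near the floor of 3 reads and the log2 fold change of 5.91 (SE 0.78, adjusted p = 0.0196) depends on the added 1. *Krt19*, a keratin of simple duct epithelium on chromosome 11 from 100140810 to 100148665, had 1.73, 1.93, 74.1 and 330.0 FPKM and rose with a log2 fold change of 5.80 (SE 0.72, adjusted p = 0.0187). The 2 genes ranked the ADPKD libraries in opposite order, with *Havcr1* highest in ADPKD 1 and *Krt19* highest in ADPKD 2.

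*Lcn2*, which encodes the iron-carrier-binding protein NGAL, had 8.94, 14.2, 257 and 610 FPKM (log2 fold change 5.02, SE 0.48, adjusted p = 0.0174). *Krt20*, another keratin, had 0.628, 1.86, 44.9 and 59.8 FPKM (log2 fold change 4.61, SE 0.33, adjusted p = 0.0151), and *Psca*, a surface protein of urinary tract epithelium, had 2.62, 1.54, 41.4 and 142 FPKM. In these 3 genes ADPKD 2 was the highest library. Of 37 injury and repair markers, all of which passed the filter on low values, 29 rose and 1 fell. The median log2 fold change was 1.71 beside 0.02 over all tested genes. Of the 37, 4 passed only through ADPKD, *Havcr1* among them, and all 4 were called higher. *Spp1*, which encodes the secreted phosphoprotein osteopontin, went from 291 and 284 FPKM to 4875 and 3984 FPKM, the largest rise of any tested gene in FPKM (log2 fold change 3.93, SE 0.16, adjusted p = 0.0101). *Cd24a*, which is on the same list, did not pass, at 387, 394, 380 and 377 FPKM.

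The other largest gains fell to matrix genes and to genes of immune cells and their recruitment. *Timp1*, an inhibitor of matrix metalloproteinases, had 0.516, 0.982, 32.9 and 70.5 FPKM (log2 fold change 4.83, SE 0.40, adjusted p = 0.0174). *Col1a1* and *Col3a1*, the chains of fibrillar collagens I and III, were close to equal in the ADPKD libraries, at 32.3 and 33.4 FPKM and at 32.2 and 32.6 FPKM, while no WT library had more than 0.389 FPKM of either. *Lyz2*, the lysozyme of macrophages and other myeloid cells, had 7.63, 8.69, 188 and 224 FPKM. *Cxcl14* and *Ccl7*, a pair of chemokines, had 43.1 and 55.3 FPKM and 107 and 90.3 FPKM in the ADPKD libraries, with log2 fold changes of 5.05 and 4.42.

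In absolute FPKM, the 5 largest rises belonged to *Spp1*, *Cldn4*, *Krt8*, *Gpx3* and *Plau*. *Cldn4*, a tight junction claudin of the collecting duct, had 717, 932, 2152 and 2299 FPKM (log2 fold change 1.44, SE 0.18, adjusted p = 0.0187). *Plau*, which encodes the protease urokinase, had 121, 100.1, 781 and 835 FPKM. *Gpx3*, the secreted glutathione peroxidase made by proximal tubule, had 378, 396, 1274 and 1300.4 FPKM. In each of these genes the 2 ADPKD libraries lay close together and far above WT.

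**Figure D2:**
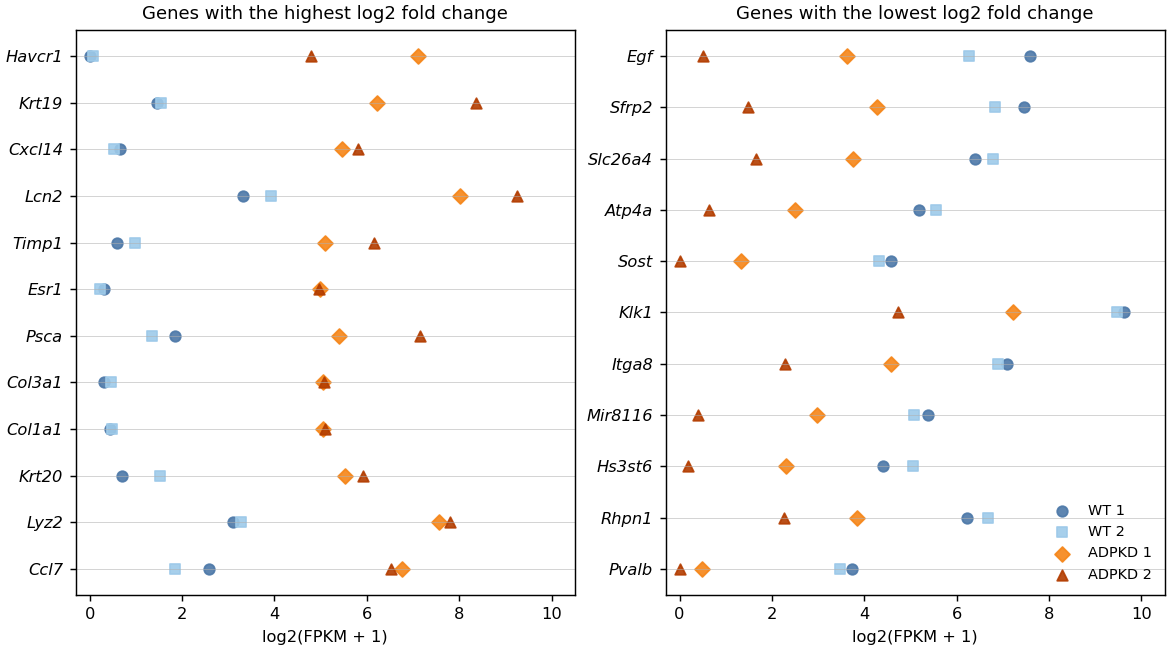
Level of the 12 genes with the highest (left) and 11 of the 12 with the lowest (right) log2 fold changes among the genes named by size, as log2(FPKM + 1) on the x axis, with 1 marker for each of the 4 libraries. For *Esr1*, *Col1a1* and *Col3a1* the ADPKD markers coincide, while for the 11 genes on the right ADPKD 2 is the lowest library in each.

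The deepest losses were of products of the distal nephron. *Egf*, the epidermal growth factor made in the thick ascending limb and distal convoluted tubule, lies on chromosome 3 from 129677565 to 129755316 and had 191, 75.7, 11.4 and 0.418 FPKM. Its log2 fold change of -4.86 (SE 1.13) was called, with an adjusted p = 0.0509 that misses 0.05. *Sfrp2*, a secreted inhibitor of Wnt signalling on chromosome 3 from 83766321 to 83774316, had 176, 113, 18.2 and 1.81 FPKM (log2 fold change -4.27, SE 0.95, adjusted p = 0.0468). For both genes the WT libraries differed as well, and ADPKD 1 lay between WT and ADPKD 2.

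*Klk1*, the tissue kallikrein of the connecting tubule, had 792, 710.3, 149 and 25.5 FPKM (log2 fold change -3.58, SE 0.84, adjusted p = 0.0515). *Pvalb*, a calcium-binding protein of the early distal convoluted tubule, had 12.3, 10.1, 0.407 and 0 FPKM, and *Sost*, an inhibitor of Wnt coreceptors, had 22.7, 19.0, 1.51 and 0 FPKM. A count of 0 in ADPKD 2 allows up to 3 reads, and counting error only is covered by this floor. *Slc26a4*, which encodes pendrin, the chloride and bicarbonate exchanger of type B intercalated cells, had 83.6, 109, 12.4 and 2.15 FPKM. *Atp4a*, the potassium-carrying proton pump subunit also found in intercalated cells, had 35.4, 45.7, 4.69 and 0.556 FPKM. *Itga8*, an integrin chain of mesangial and other mesenchymal cells, had 135, 118, 22.9 and 3.88 FPKM. In each of these genes ADPKD 2 was the lowest library. *Hs3st6*, *Rhpn1* and *Mir8116* were also among the 12 lowest, and reads over a microRNA gene in poly(A) libraries cannot be told apart from those of a longer transcript.

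The markers of collecting duct cells were present in all 4 libraries. *Aqp2*, the water channel of principal cells, had 1267, 1776, 1392 and 677 FPKM, and its log2 fold change of -0.63 (SE 0.40, adjusted p = 0.315) was not called. Of 14 principal cell markers 13 passed the filter. *Kcne1*, a potassium channel subunit, fell and *Aqp4*, a basolateral water channel, rose, and the other 11 were not called. These calls were lost without WT replicate 1, at log2 fold changes of -2.24 and 1.32, or WT replicate 2, at -2.11 and 1.19. Without ADPKD replicate 1, 8 markers were lower, *Aqp2* among them at -1.15, and without ADPKD replicate 2, 4 were higher. Summed over the list the FPKM was 2249 and 2952 in WT, 2762 in ADPKD 1 and 1061 in ADPKD 2. The medians of the list by library, 0.14 in ADPKD 1 and -0.89 in ADPKD 2, had opposite signs. *Hsd11b2*, which protects the mineralocorticoid receptor from cortisol, showed the same, with 357, 433, 432 and 56.4 FPKM. *Avpr2*, the vasopressin receptor gene, shares 81.3% of its exon bases with *Arhgap4* on the opposite strand, and its value is not interpreted.

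Intercalated cell markers were lower in both ADPKD libraries. Of 18 markers 17 passed the filter, 14 fell and none rose, with a median log2 fold change of -1.78. Of the 17, 3 passed only through WT, and all 3 were called lower. The summed FPKM of the list was 598 and 645 in WT, 327 in ADPKD 1 and 154 in ADPKD 2. *Foxi1*, the transcription factor that specifies these cells, had 9.23, 7.55, 2.14 and 1.35 FPKM (log2 fold change -1.78, SE 0.21, adjusted p = 0.0181). *Slc4a1*, the anion exchanger of type A cells, had 20.6, 14.9, 3.02 and 0.0128 FPKM, and *Slc4a9*, an exchanger of type B cells, had 51.2, 57.2, 12.7 and 6.60 FPKM. Subunits of the proton pump V-ATPase moved both ways. *Atp6v1g3*, *Atp6v1c2*, *Atp6v1b1* and *Atp6v0d2* fell, with log2 fold changes of -2.57, -2.67, -1.93 and -1.25, whereas the widely used *Atp6v1b2* and *Atp6v1c1* rose, with 1.06 and 0.66. The call of *Atp6v1b1* was lost without WT replicate 1 (-1.89) or 2 (-1.97), and that of *Atp6v1c1* without WT replicate 1 (0.54) or ADPKD replicate 1 (0.51). *Rhcg*, an ammonia channel, was not called, at 155, 171, 172 and 42.3 FPKM, and was called lower without ADPKD replicate 1 (-1.92).

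Other nephron segments moved in different ways. Of 13 tested markers of the distal convoluted and connecting tubule 6 fell (3 without WT replicate 2) and 1, the magnesium channel gene *Trpm6*, rose (2.26, 2.31, 8.27 and 17.7 FPKM). Of 8 tested markers of the thick ascending limb *Egf* and *Slc12a1*, the sodium, potassium and chloride carrier, fell, the latter no longer without WT replicate 1 (-1.28) or ADPKD replicate 2 (-1.08). *Umod*, the uromodulin gene and the most abundant of the list, had 987, 319, 498 and 152 FPKM and was not called. Of 19 tested proximal tubule markers 6 rose and 2 fell, against 5 lower without ADPKD replicate 1 and 10 higher without ADPKD replicate 2. *Napsa*, an aspartic protease, rose to 53.9 and 20.9 FPKM from 3.86 and 3.05 FPKM, and *Hnf4a*, the transcription factor of this segment, to 7.28 and 5.37 FPKM from 2.36 and 2.32 FPKM. The markers that fell were *Miox* and *Cyp4b1*, with log2 fold changes of -2.59 and -1.43. *Miox* lost its call without WT replicate 1 (-2.02) or ADPKD replicate 2 (-1.31). The list summed to 1045 and 827 FPKM in WT and to 2279 and 1604 FPKM in ADPKD. Without *Gpx3*, its most abundant member, which was left out after the values were seen, the other 19 markers summed to 667 and 431 FPKM in WT, 1005 FPKM in ADPKD 1 and 304 FPKM in ADPKD 2, so that ADPKD 2 was then the lowest library.

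Cells other than tubule cells contributed to every library, and their markers differed between the groups. In bulk samples, fewer cells of a type and less RNA per cell cannot be told apart. All 12 podocyte markers passed the filter and all 12 fell, with a median log2 fold change of -2.47. Their summed FPKM was 1184 and 1636 in WT and 322 and 158 in ADPKD, and *Nphs1*, which encodes nephrin of the slit diaphragm, had 63.7, 98.7, 13.3 and 3.42 FPKM. Of 15 endothelial markers 13 fell and 1 rose, and the sum was 1839 and 1603 FPKM in WT and 865 and 820 FPKM in ADPKD. *Ehd3*, which is typical of glomerular endothelium, had 150, 134, 24.2 and 8.39 FPKM, while *Plvap*, typical of the fenestrated capillaries around tubules, rose (146, 127, 242 and 277 FPKM). How far these shares of other cells account for the genes described elsewhere was not tested.

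Macrophage markers rose. Of 20 listed 18 passed the filter, 15 rose and 1 fell, with a median log2 fold change of 1.61. Of the 18, 5 passed only through ADPKD, and all 5 were called higher. All 20 markers summed to 331 and 254 FPKM in WT and 1451 and 1005 FPKM in ADPKD. *C1qa*, *C1qb* and *C1qc*, whose products form the first component of complement and which macrophages make, had log2 fold changes of 3.21, 3.28 and 3.50. *Adgre1*, which encodes the macrophage antigen F4/80, had 1.54, 1.04, 11.6 and 6.60 FPKM. *Cd74* and *H2-Ab1*, both of antigen presentation by class II molecules, were highest in ADPKD 1 (176, 121, 656 and 207 FPKM and 46.8, 33.6, 167 and 49.5 FPKM) and were called only without ADPKD replicate 2 (2.16 and 2.05). Markers of other blood cells summed to little in all 4 libraries. The 11 neutrophil markers summed to 6.71, 4.42, 4.03 and 19.7 FPKM, with *Csf3r* called higher (1.08) and *S100a9* called higher without ADPKD replicate 1 (1.498). The sums were 3.39 to 6.54 FPKM for 13 T and NK cell markers, 8.98 to 27.4 FPKM for 9 B and plasma cell markers and 12.1 to 31.1 FPKM for 8 erythroid markers. The erythroid list includes *Slc4a1*, given above with intercalated cells, which fell (log2 fold change -3.20). Its sums therefore need not be of erythroid cells alone. Of the fibroblast and pericyte markers, 14 were tested, 8 rose and 2 fell. In 5 of the 14 both WT libraries were under 1 FPKM, so that they passed only through ADPKD, and all 5 were called higher. The collagens, *Dcn* and *Mfap4* rose, while *Des* and *Pdgfrb*, which mark mesangial cells and pericytes, fell with log2 fold changes of -2.10 and -1.12.

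**Figure D3:**
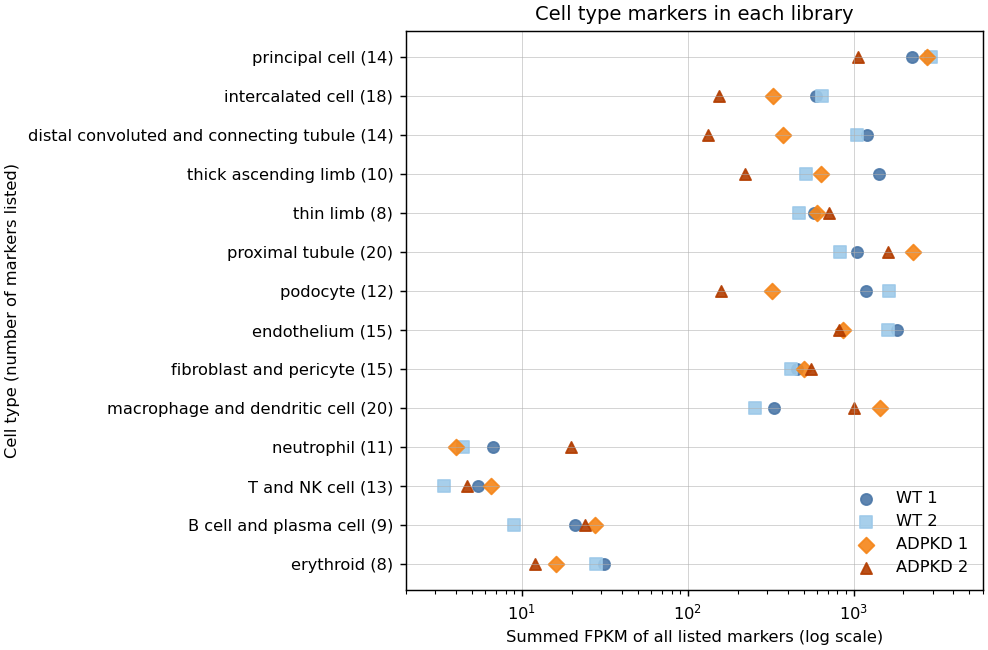
Summed FPKM of all listed markers of each cell type (x axis, log scale), with 1 marker shape for each of the 4 libraries and the number of markers listed in parentheses. Sums for podocytes, endothelium, intercalated cells and distal tubule are lower in ADPKD 1 and ADPKD 2 than in either WT library, those for macrophages are higher, those for proximal tubule are higher with *Gpx3* and lowest in ADPKD 2 without it, and the principal cell sum is low in ADPKD 2, at 1061 FPKM.

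The epithelial surface and its junctions changed in composition. Of 26 tested genes for keratins and junctions 17 rose and 1 fell, with a median log2 fold change of 1.15. *Krt8* and *Krt18*, the keratin partners of simple epithelia, had 227, 316, 1187 and 1494 FPKM and 211, 264, 667 and 857 FPKM. Among claudins, *Cldn1*, *Cldn3* and *Cldn4* rose. Of 19 tested genes for mucins and the enzymes that build glycans, 12 rose and 1 fell. Of the 19, 4 passed the filter only through ADPKD, and all 4 were called higher. *Muc1*, a mucin of the apical membrane, had 39.1, 38.4, 201 and 276 FPKM (log2 fold change 2.57, SE 0.20, adjusted p = 0.0164), and *Galnt3*, which starts mucin-type glycans with the N-acetylgalactosamine that DBA binds, had 3.18, 4.34, 17.7 and 18.6 FPKM. *Pigr*, the receptor that carries immunoglobulin A across epithelium, had 10.7, 4.18, 48.3 and 45.5 FPKM. The cells were separated by a lectin that binds such glycans, and the part of this in the other differences was not tested.

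Most tested signals that recruit immune cells rose. Of 43 listed chemokines and cytokines 35 passed the filter, 6 of them only through ADPKD, 26 rose and 2 fell, with a median log2 fold change of 1.89. *Ccl2* and *Ccl8*, which attract monocytes, had 5.49, 6.47, 85.1 and 127 FPKM and 0.128, 0, 21.5 and 18.2 FPKM. *Il33*, an alarm signal released by damaged cells, had 0.306, 0.649, 7.20 and 24.1 FPKM. The neutrophil chemokines went separate ways, as *Cxcl2* rose (86.8, 48.2, 241 and 526 FPKM, adjusted p = 0.0366) and *Cxcl1* was not called (742, 503, 392.3 and 427 FPKM) but was lower without WT replicate 2 (-0.86). Of 19 tested complement genes 14 rose and 2 fell, with a median of 2.20. Of the 19, 3 passed the filter only through ADPKD, and all 3 were called higher. *C3* and *C4b* were among the complement genes that rose. *C4b* went from 0.178 and 0.136 FPKM to 13.3 and 10.95 FPKM. Of 25 tested subunits and targets of NF-kB, a transcription factor of inflammation, 10 rose and 1 fell, and 5 rose without WT replicate 2. *Tnf* had 14.99, 9.76, 84.4 and 89.0 FPKM, and *Nfkbia*, the inhibitor that NF-kB itself induces, was not called (log2 fold change 0.03). *Syk*, a kinase of immune receptors, rose with 1.64. Macrophage markers rose in the same libraries, and the cells that made these transcripts cannot be told apart.

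The gp130 cytokines and their targets gave a mixed pattern. *Lif* and *Osm*, ligands of this receptor family, rose with log2 fold changes of 3.19 and 1.89, and *Fgg*, a fibrinogen chain induced by STAT3, with 3.76. *Clcf1*, another ligand, rose as well and had 11.2, 10.2, 24.9 and 42.5 FPKM. *Socs3*, which is induced by STAT3 and limits the same receptor, fell from 930.1 and 824 FPKM to 327 and 218 FPKM (log2 fold change -1.71, SE 0.24, adjusted p = 0.0209). *Stat3* was level, at 63.6, 69.5, 60.1 and 71.0 FPKM. In all, 9 of 25 tested genes rose and 5 fell, beside 14.1% and 12.9% of all genes. Of the 25, 4 passed the filter only through ADPKD, and all 4 were called higher.

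Matrix genes were called in part. Of 35 tested genes for collagens, laminins and other matrix proteins 16 rose and 2 fell. Of the 35, 4 passed the filter only through ADPKD, and all 4 were called higher. *Fn1*, the fibronectin gene, had 4.30, 4.06, 34.6 and 35.7 FPKM, and *Col6a1* had 0.687, 1.14, 16.1 and 14.04 FPKM. *Lamb3*, a chain of the laminin of epithelial basement membranes, rose with 2.42, together with *Itgb4* and *Itga6*, whose products bind that laminin (1.62 and 1.40). The collagen IV genes *Col4a1* and *Col4a2*, abundant in normal basement membrane, were not called, at 199, 208, 249 and 236 FPKM and at 164, 169, 183 and 204 FPKM. Among proteases, *Plat*, which encodes tissue plasminogen activator, fell from 861 and 747 FPKM to 183 and 135 FPKM (log2 fold change -2.34, SE 0.20, adjusted p = 0.0174), while *Plau*, the other plasminogen activator, rose with 2.86. *Itga9* fell alongside *Itga8*, and *Itgb6* and *Itgav*, which together form a receptor that activates TGF-beta, rose with 1.66 and 1.16.

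**Figure D4:**
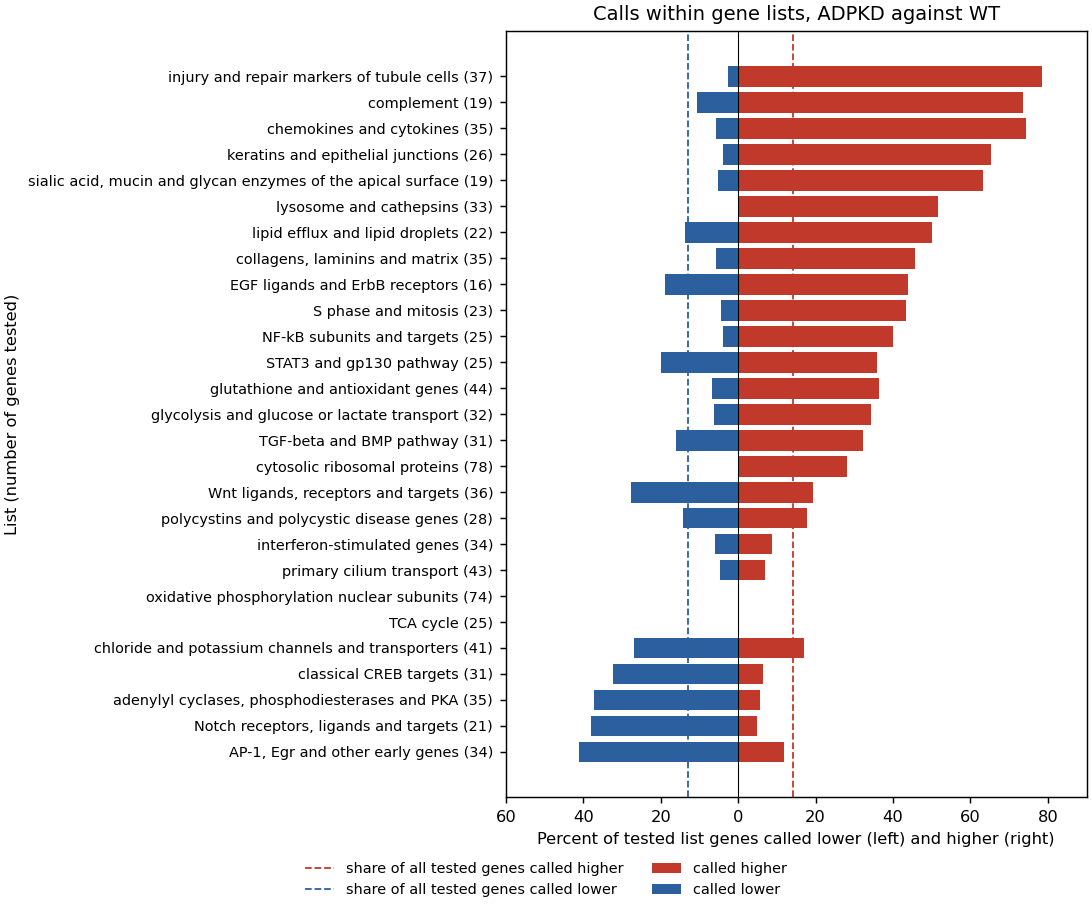
Percent of tested genes in each list that were called higher (red, to the right) or lower (blue, to the left), with the number of tested genes in parentheses and dashed lines at the shares of all tested genes, 14.1% higher and 12.9% lower. Injury, complement, chemokine and keratin lists extend furthest to the right among those plotted, early gene, Notch and cyclic AMP lists furthest to the left, and 0 of 74 oxidative phosphorylation genes were called.

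The polycystins are part of a group of genes whose loss gives cystic kidneys, many of them for cilia. Of 28 tested disease genes 5 rose (3 without WT replicate 2) and 4 fell, beside 14.1% and 12.9% of all genes. *Pkhd1*, which encodes fibrocystin, had 10.8, 10.04, 32.4 and 22.4 FPKM, and *Bicc1*, an RNA-binding protein whose loss gives cysts, had 11.4, 12.3, 43.0 and 41.1 FPKM (log2 fold change 1.74, SE 0.13, adjusted p = 0.0161). *Glis2*, a transcription factor of nephronophthisis, rose with 1.77. *Lrp5*, a Wnt coreceptor, fell with -1.20, as *Pkd1* did with -0.998. *Ganab* and *Dnajb11*, which serve the folding of polycystin-1, were not called. Of 43 tested genes for ciliary transport, 3 rose and 2 fell, below the 14.1% and 12.9% of all genes. Both counts changed when single libraries were left out.

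Genes that make, break or relay cyclic AMP were examined because cyclic AMP drives cyst fluid secretion. Of 35 tested genes for adenylyl cyclases, phosphodiesterases and protein kinase A 13 fell, 2 rose and 20 were not called, beside 12.9% of all genes lower and 14.1% higher, and the median log2 fold change was -0.48. The cyclases *Adcy1*, *Adcy5* and *Adcy4* fell with -2.06, -1.52 and -1.34, and *Adcy7* rose from 0.923 and 0.595 FPKM to 3.40 and 3.17 FPKM. *Pde3a* and *Pde4c*, whose products degrade cyclic AMP, fell with -1.31 and -1.21, and *Pde4b* was not called (log2 fold change 0.26). *Slc12a2*, the basolateral carrier that loads chloride for secretion, had 89.4, 62.5, 19.5 and 13.9 FPKM (log2 fold change -2.12, SE 0.26, adjusted p = 0.0186).

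The 5 largest falls in FPKM were those of *Junb*, *Fos*, *Jun*, *Klk1* and *Plat*, the first 3 of them immediate early genes, which cells switch on within minutes of a stimulus. *Junb* had 2432, 2372, 1221 and 910.3 FPKM (log2 fold change -1.19, SE 0.19, adjusted p = 0.0252), *Fos* had 1907, 2120.2, 953 and 604 FPKM, and *Jun* had 1544, 1694, 935 and 665 FPKM. Of 34 tested early genes 14 fell and 4 rose (fewer rose without WT replicate 1), beside 12.9% lower and 14.1% higher of all genes. *Egr1* and *Dusp1* were in the same order, with log2 fold changes of -1.36 and -1.11, and the 4 that rose included *Dusp2* (1.74) and *Myc*, which had 29.9, 35.8, 75.5 and 91.5 FPKM. *Fosb* was not called, but was lower without ADPKD replicate 1 (-0.59). Of 16 genes of heat shock and of cell dissociation, *Socs3* and *Hspa1a* were called, both lower, the latter not without WT replicate 2 (-0.59) or ADPKD replicate 2 (-0.60). This count is near the 12.9% of all genes called lower, and none was called higher, beside 14.1% of all genes. *Creb1* itself had 3.53, 3.58, 1.99 and 2.14 FPKM, under the 1.5-fold change on the scale tested, which it passed without ADPKD replicate 2 (-0.61).

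Promoters were searched for the binding letters of factors named above. RefSeq promoters of GRCm38.p6, from 250 bases before to 50 after a start, were at hand for 9771 of the tested genes, in 12488 windows of 300 bases, and both strands were read. The letters were chosen with earlier results known, no motif searched holds another, and a match is a description and not a binding site. The AP-1 letters TGANTCA were in 10.2% of the 1661 windows of genes called higher, in 4.92% of the 1585 windows of genes called lower and in 5.32% of all windows. The cyclic AMP response element TGACGTCA was in 1.38%, 1.96% and 2.83% in the same order, NF-kB letters GGANTTTCC in 1.99%, 1.39% and 1.43%, and the E-box CACGTG, which MYC and others read, in 9.21%, 7.26% and 9.90%. Interferon response letters GAAANNGAA were in 7.47%, 7.003% and 7.05%, TEAD letters GGAATG in 13.8%, 13.6% and 12.6%, and HNF1 letters GTTAATNAT in 0.361%, 0.315% and 0.448%. AP-1 was the motif whose share differed most between windows of genes called higher and lower.

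The following windows of 30 bases, read along the strand of the gene with the motif in capitals, show genes chosen after their values were seen. The first 4 hold AP-1 letters and belong to genes that rose, the claudin *Cldn4* at chr5:134947155-134947184 and chr5:134947074-134947103 on the minus strand, *Lif* at chr11:4257329-4257358 on the plus strand and the cytokine *Il11* at chr7:4778221-4778250 on the minus strand. The next 2 hold the cyclic AMP element and belong to genes that fell, the phosphatase *Dusp1* at chr17:26508597-26508626 and the growth inhibitor *Btg2* at chr1:134079303-134079332, both on the minus strand. The call of *Btg2* was lost without WT replicate 1 (-0.80), WT replicate 2 (-0.69) or ADPKD replicate 2 (-0.50). The last 2, which differ at 7 of the 30 bases and hold the same NF-kB letters, are those of *Cxcl1*, which was not called, at chr5:90891165-90891194, and *Cxcl2*, which rose, at chr5:90903793-90903822, both on the plus strand.
Cldn4, distal: tctaggctggTGACTCAgtgtctgtgtccc
Cldn4, proximal: atactggcgggTGACTCAggggcccaggac
Lif: ccagtcagctgTGACTCAggccatagtggc
Il11: aggagggagggTGAGTCAggatgtgtcagg
Dusp1: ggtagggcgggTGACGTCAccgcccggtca
Btg2: gttcccaataaTGACGTCAgtgagcgatga
Cxcl1: ctgtactccgGGAATTTCCctggcccggag
Cxcl2: ctgagctcagGGAATTTCCctggtccccgg

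Signalling ligands and receptors of tubule growth moved both ways. Among Wnt genes, of which 36 were tested, 7 rose and 10 fell, beside 14.1% and 12.9% of all genes, and the median log2 fold change was 0.07. Of the 36, 2 passed the filter only through ADPKD, and both were called higher. The ligands *Wnt7b* and *Wnt9b*, both of the collecting duct lineage, rose (4.75, 6.20, 16.02 and 39.0 FPKM and 6.14, 4.13, 17.5 and 16.5 FPKM), and *Wnt7a* was listed at 0 in both WT libraries and at 1.72 and 7.81 FPKM in ADPKD. The secreted inhibitors *Sfrp2*, *Dkk2* and *Wif1* fell with log2 fold changes of -4.27, -2.67 and -2.35, and *Dkk3* rose with 2.60. *Ctnnb1*, which encodes beta-catenin, was called higher only without ADPKD replicate 1 (0.66). In the EGF family the loss of *Egf* stood beside rises of other ligands of the same receptors, *Areg*, *Ereg* and *Nrg1* (2.104, 1.78 and 1.46), and of the receptor *Egfr*, which had 2.74, 4.11, 11.2 and 13.3 FPKM. *Ereg* lost its call without WT replicate 2 (1.72).

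Of 21 tested Notch genes 8 fell, 1 rose and 12 were not called, beside 12.9% of all genes lower and 14.1% higher. *Dll4* and *Notch4*, which are known from endothelium, fell with -0.96 and -1.50, while *Jag1*, another ligand, was called higher only without ADPKD replicate 1 (0.64). Endothelial markers fell in the same libraries, as given above. In the TGF-beta family 10 of 31 tested genes rose and 5 fell, against 6 and 3 without WT replicate 1 and 3 lower without WT replicate 2. The shares of all genes were 14.1% higher and 12.9% lower. Of the 31, 3 passed the filter only through ADPKD, *Inhba* among them, and all 3 were called higher. The activin subunit genes *Inhbb* and *Inhba* rose (1.40, 1.40, 11.5 and 37.2 FPKM, and 0.102, 0.111, 1.40 and 7.42 FPKM), as did *Fst*, whose product binds activin. The inhibitory *Smad6* fell with -1.55. *Igfbp3* and *Igfbp2*, which bind insulin-like growth factors, rose with 2.85 and 3.01, and *Igfbp5* fell from 558 and 432 FPKM to 147 and 42.6 FPKM. Among genes of the oxygen response *Mxi1* and *Ndrg1* rose (1.07 and 0.98) and *Epas1* and *Vegfa* fell (-1.93 and -1.51). Of 28 tested factors and targets of this response 5 rose and 4 fell, near the 14.1% and 12.9% of all genes. These numbers were 10 higher without ADPKD replicate 1 and 2 lower without WT replicate 2. Of 26 tested genes of the Hippo pathway and targets of its factor YAP, 4 rose and 6 fell, beside 14.1% and 12.9% of all genes. *F3*, the tissue factor gene, rose from 30.9 and 43.1 FPKM to 284 and 375 FPKM and *Ankrd1* rose with 2.06, and the kinase gene *Lats2* fell with -1.36, though some of its exon bases are shared with *Gm49361*.

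The identity of duct and nephron cells was traced through 42 tested lineage factors, of which 12 rose and 8 fell, beside 14.1% and 12.9% of all genes (13 lower without ADPKD replicate 1). *Sox9*, a factor of the embryonic tubule that returns in repair, had 2.90, 7.41, 34.7 and 64.6 FPKM (log2 fold change 3.08, SE 0.48, adjusted p = 0.0248). *Foxi1* and *Wt1*, which also mark intercalated cells and podocytes, and *Emx1* fell, the last not without WT replicate 2 (-1.97).

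Of 44 listed genes of S phase and mitosis 23 passed the filter, 10 rose, 12 were not called and 1, *E2f1*, fell (-1.28). Of all genes 14.1% were called higher and 12.9% lower. In 4 of the 23, *Mki67* and *Ube2c* among them, both WT libraries were under 1 FPKM, so that they passed only through ADPKD, and all 4 were called higher. *Mki67*, the gene of the Ki-67 antigen, had 0.666, 0.594, 3.59 and 2.02 FPKM, and *Ube2c*, needed for exit from mitosis, had 0.226, 0.199, 2.14 and 1.79 FPKM, with 22.8% of its exon bases shared with *Tnnc2* on the opposite strand. *Pcna*, also used in repair, had 74.3, 77.8, 67.2 and 55.1 FPKM and was not called. The inhibitors of cyclin-dependent kinases moved apart. *Cdkn2a* and *Cdkn2b*, which mark arrested cells, rose with 1.89 and 1.90, *Cdkn1c*, which is also a podocyte gene and shares 30.7% of its exon bases with *Gm44732*, fell with -2.54, and *Cdkn1a* was level at 160.1, 158, 128 and 175 FPKM. Among 32 genes of p53 and apoptosis 11 rose and 3 fell (fewer fell without WT replicate 1 or 2), beside 14.1% and 12.9% of all genes. *Pmaip1*, whose product NOXA promotes cell death, had 9.98, 15.3, 79.0 and 99.3 FPKM.

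Metabolic genes differed by pathway. None of the 74 tested nuclear genes for oxidative phosphorylation and none of the 25 of the TCA cycle passed the test. Of 26 genes of fatty acid oxidation 1 rose, *Pdk4*, a kinase that holds back pyruvate oxidation. The first 2 counts are 0 at these thresholds with P and with limma's adjusted p, and without ADPKD replicate 1 it was 11 lower for oxidative phosphorylation, 8 for the TCA cycle and 5 for fatty acid oxidation. Of 32 genes of glycolysis and transport 11 rose and 2 fell, beside 14.1% and 12.9% of all genes. *Hk2*, the inducible hexokinase, had 2.12, 2.78, 27.6 and 91.1 FPKM (log2 fold change 3.90, SE 0.58, adjusted p = 0.0230), and *Slc16a1*, a lactate carrier, had 2.56, 2.62, 12.8 and 13.02 FPKM. *Slc2a4*, the insulin-regulated glucose transporter, fell with -1.79, and *Ldha*, later in the pathway, was not called. Of 31 genes of amino acid catabolism 3 rose and 3 fell, below the 14.1% and 12.9% of all genes. Fewer were called higher without WT replicate 1 or 2, and more were called lower without ADPKD replicate 1.

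Lysosomal, lipid and antioxidant genes were called higher more than lower, beside 14.1% higher and 12.9% lower of all genes, and many were not called. Of 33 lysosomal genes 17 rose (10 without WT replicate 1 or 2) and none fell, with *Ctss*, *Lgmn* and *Ctsk*, proteases abundant in macrophages, at 3.12, 2.23 and 2.09 and *Ctsd* at 134, 166, 479 and 519 FPKM, of which 34.4% of the exon bases are shared with *Gm49369*. Of 22 genes of lipid efflux and storage 11 rose and 3 fell (1 lower without WT replicate 1). *Apoe*, the lipid carrier that macrophages also make, had 113, 119, 494 and 996 FPKM, and the cholesterol exporters *Abca1* and *Abcg1* rose with 2.59 and 1.73. *Lpl*, lipoprotein lipase, fell with -2.47. Of 44 genes of glutathione and antioxidant defence 16 rose, 25 were not called and 3 fell (5 lower without ADPKD replicate 1). *Gsto1*, a glutathione transferase, had 17.6, 15.5, 129 and 358 FPKM, and *Gsr* and *Gss*, which regenerate and make glutathione, rose with 1.76 and 1.64. *Hmox1*, heme oxygenase, varied within groups, at 111, 404, 267 and 712 FPKM, and was called higher only without WT replicate 2 (1.97). Of 38 genes of the unfolded protein and integrated stress responses 7 rose and none fell, a share higher near the 14.1% of all genes. The largest of these rises were those of *Phgdh* (11.7, 8.15, 33.01 and 28.9 FPKM), *Eif4ebp1* (log2 fold change 1.475) and *Asns* (2.67, 3.63, 8.81 and 11.7 FPKM). *Phgdh* and *Asns* encode enzymes of serine and asparagine synthesis. The chaperone gene *Hspa5* was not called.

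Some groups of genes lay on opposite sides of WT in the ADPKD libraries. These differences have no test, since each side is 1 library, and ADPKD 1 and ADPKD 2 were not labelled as anything but replicates. Of 34 tested interferon-stimulated genes 33 were lower in ADPKD 2 than in ADPKD 1, against 52.5% of all tested genes. Their median difference from WT was 0.72 in ADPKD 1 and -0.52 in ADPKD 2. In the test 3 rose and 2 fell, below the 14.1% and 12.9% of all genes. Without ADPKD replicate 2 the counts were 19 higher and 2 lower, and without ADPKD replicate 1 they were 3 higher and 17 lower. *Ifit2*, *Ifit3* and *Cmpk2*, which interferon induces, had 14.4, 11.6, 40.2 and 7.30 FPKM, 38.2, 30.9, 76.0 and 16.6 FPKM and 6.91, 4.54, 14.1 and 2.45 FPKM. These 3 genes were called lower without ADPKD replicate 1 (-0.75, -1.003 and -0.94) and higher without ADPKD replicate 2 (1.57, 1.12 and 1.19). Of 18 genes of antigen presentation by class I and II molecules 17 were lower in ADPKD 2.

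Proximal tubule genes behaved likewise, with 18 of 19 lower in ADPKD 2 than in ADPKD 1 and medians of 1.31 and -0.24 against WT. *Kap*, an androgen-regulated gene of this segment, had 234, 101, 509 and 64.0 FPKM, and *Hao2*, a peroxisomal oxidase, had 3.96, 2.59, 16.3 and 0.807 FPKM, and was called lower without ADPKD replicate 1 (-1.22) and higher without ADPKD replicate 2 (2.03). *Kap* also differed between the WT libraries. In all, 50 genes were at least 1.5-fold above the WT mean in 1 ADPKD library and at least 1.5-fold below it in the other. The oxidative phosphorylation list was lower in ADPKD 2 in 73 of 74 genes, with medians of 0.08 and -0.35, and the cytosolic ribosomal proteins went the other way, lower in ADPKD 2 in 3 of 78 genes. Of these ribosomal genes 22 rose by P, beside 14.1% of all genes, and none by adjusted p, beside 9.49%. Far fewer rose without WT replicate 1, WT replicate 2 or ADPKD replicate 2, and more rose without ADPKD replicate 1.

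ADPKD 2 held more than ADPKD 1 of several secreted and surface proteins. *Serpina3n*, an acute phase protease inhibitor, had 0.856, 0.501, 11.8 and 77.8 FPKM, *Msln*, the mesothelin gene, had 0.0107, 0.0316, 8.25 and 50.5 FPKM, and *Muc4*, a mucin, had 0.161, 0.291, 2.80 and 21.9 FPKM. All 3 rose in the test, *Muc4* with an adjusted p = 0.0835, and were above WT in both ADPKD libraries. *Slc14a2*, the urea carrier of the inner medulla and thin limb, was high in ADPKD 2 alone, at 40.5, 38.9, 34.2 and 196 FPKM, and *Slc12a3*, the thiazide-sensitive carrier, was nearly lost there, at 80.6, 70.2, 35.6 and 3.14 FPKM. Neither was called in the full comparison, while without ADPKD replicate 1 they were higher (2.27) and lower (-4.20), and *Slc12a3* was also lower without ADPKD replicate 2 (-1.06). *Rpl34-ps1* and *Ndufs5-ps*, which also stood far apart, are processed copies of other genes and share reads with them, so their values are uncertain.

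**Figure D5:**
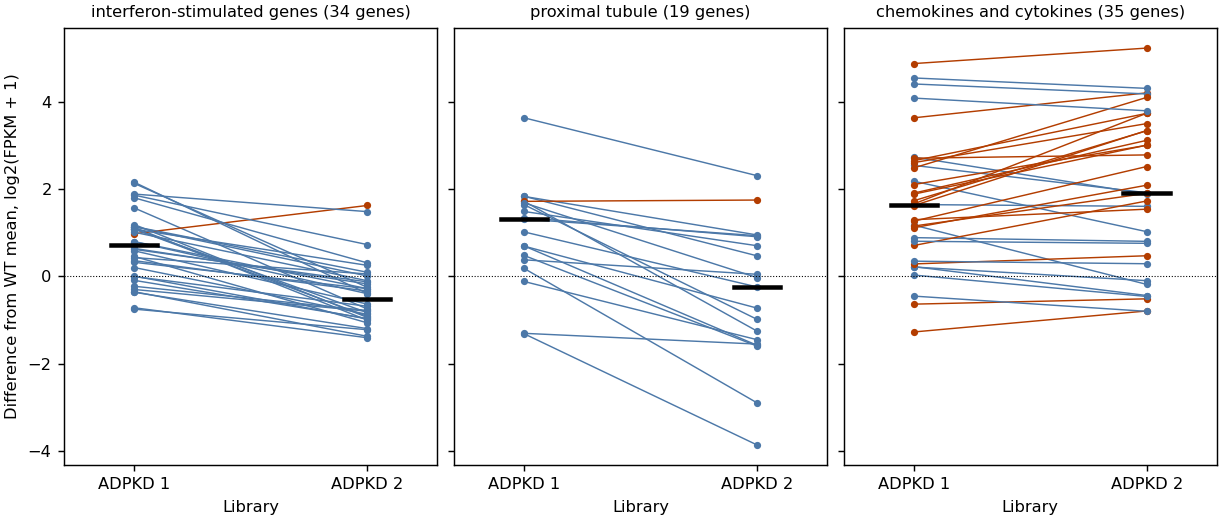
Difference from the WT mean of each tested gene of 3 lists in ADPKD 1 and ADPKD 2, in log2(FPKM + 1), with a line joining the 2 values of a gene (dark orange where ADPKD 2 is higher, blue where it is lower) and a black bar at the median. Of 34 interferon-stimulated genes 33 and of 19 proximal tubule genes 18 go down from ADPKD 1 to ADPKD 2, against 15 of 35 chemokines and cytokines.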

How the data were processed

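Poly(A) RNA from cells of WT and ADPKD kidneys was sequenced, with 2 libraries each. Per the labels and the paper's methods, HISAT2 2.1.0 (GRCm38) and featureCounts 1.6.0 were used, and the authors deposited FPKM per gene symbol. The annotation release, the strand setting and the way FPKM was made from counts are not given in the sources used here. The authors' own test was DESeq2, which needs counts and was not used here.

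Of 55367 symbols, 53253 matched 1 gene of GENCODE vM21, which gave positions and exon lengths. Multiplied by exon length, low FPKM values were multiples of what 1 read is worth (98.8% to 98.9% of them within 0.05 of a whole number), which gave the depths. The floor is 3 reads. The test was limma 3.58.1 (R 4.3.3) on log2(FPKM + 1) of genes reaching 1 FPKM in 2 or more libraries, two-sided and with no covariate, and the steps were tested on simulated data. Each mean rests on 2 libraries. Genes under 1 FPKM in both libraries of a group passed the filter only through the other group, also in lists where their number is not given.

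Named were the 12 highest and 12 lowest log2 fold changes and the 5 largest rises and falls of FPKM among called genes with a mean of at least 5 FPKM in 1 group whose libraries do not overlap (leaving out Gm and Rik symbols), the 8 genes furthest apart between the ADPKD libraries in each direction, *Pkd1*, *Esr1* and genes the study follows, and in each list up to 6 called genes with the largest changes and 3 abundant ones not called (12 for cell types). *Ankrd1*, *Btg2*, *Il11*, *Ifit2*, *Ifit3*, *Cmpk2* and other list members outside this rule were added after their values were seen. The comparison and the lists were chosen with earlier results of these data known. Alternatives covered the pseudocount, filter, scaling, trend, thresholds, a replicate block and leaving out each library. A few genes that the rule names are left out of the text. MMPP-treated libraries were not used.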

Additional observations from a re-analysis of the deposited data

How the results depend on the processing

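Of the alternatives tried, 3 moved the number of genes called higher or lower in ADPKD against WT by over 1.5 times. With a pseudocount of 5 there were 1034 higher and 949 lower, with a fold change of at least 2 there were 982 and 916, and with a filter that asks for a mean of 5 FPKM in a group 1145 were lower. The causes lie in the alternatives' own construction. Leaving out each library in turn gave from 1471 to 2369 genes higher and from 1331 to 2378 lower, and a lone library is then assumed to vary like the other group. Scaling to a common sum gave 1652 higher and 2076 lower. None of these alternatives reversed the direction of the genes named by size or of the 311 called list genes. Genes that were not called, such as *Hao2*, *Ifit2*, *Ifit3*, *Cmpk2*, *Kap* and *Slc14a2*, changed sign when 1 ADPKD library was left out. With adjusted p, 252 of the 311 kept their call, and among genes in the text *Egf*, *Klk1*, *Mir8116*, *Kcne1*, *Aqp4*, *Atp6v1b1*, *Atp6v1c1*, *Slc12a1*, *Miox*, *Osm*, *Hspa1a*, *Btg2*, *Wnt7a*, *Dkk2*, *Ereg*, *Inhba*, *Igfbp5*, *Emx1*, *Cdkn2a*, *E2f1* and *Muc4* lost it. *Creb1* was called lower with a pseudocount of 0.1, under each scaling and without ADPKD replicate 2. List medians that changed sign without ADPKD replicate 2 were those of oxidative phosphorylation, TCA cycle, fatty acid oxidation, V-ATPase, channels, cilium, cyclins, class I and II genes, and markers of principal cells, thick ascending limb, neutrophils and T cells.

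Replicate numbers are shared by the groups in the labels, with nothing to say that they mark a litter or batch. Deviations of same-numbered libraries from the group means correlated with 0.13 across genes, and with 2 pairs the numbers were not taken to pair the libraries. With the number as a replicate block, 2085 genes were higher and 1892 lower.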

Other observations

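The 37 mitochondrially encoded genes were listed at 0 in all libraries, but nuclear copies of them were not. Of 38 tested unprocessed pseudogenes, 7 share at least 80% of their 31-base words with mitochondrial transcripts, all of them on chromosome 1 from 24611535 to 24616197, and all 7 were called lower, with a median log2 fold change of -2.14. *Gm10925*, all of whose words are shared, had 190, 103, 46.4 and 19.1 FPKM, and *Gm29216*, with 97.2%, had 115.3, 66.2, 27.7 and 13.1 FPKM (log2 fold change -2.14, SE 0.45, adjusted p = 0.0416). *Gm28437* had 81.2, 312, 25.3 and 11.4 FPKM. Reads of such copies and of mitochondrial transcripts cannot be told apart, so the values are uncertain, and none of the 74 nuclear oxidative phosphorylation genes was called in the same test. These pseudogenes were picked after their values were seen.

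Of 179 tested long intergenic noncoding RNAs 32.4% were called lower and 12.8% higher, beside 12.5% and 14.1% of protein-coding genes, and the difference was not tested. *Bvht*, a noncoding RNA first described in the heart, fell with a log2 fold change of -1.53 (SE 0.17, adjusted p = 0.0176). This class was picked after the calls were known.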
